A study of Mus musculus with 9 samples.

Results

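The genes described here are 35 cell cycle genes and cell cycle inhibitors, taken by symbol from a table of read counts with 45664 gene symbols. They fall into 5 roles: 6 subunits of the replicative helicase (Mcm2 to Mcm7), 4 genes of DNA synthesis (Pcna, Rrm1, Rrm2, Tyms), 14 genes of G2 and mitosis, 7 genes of G1 and entry into S phase, and 4 inhibitors (Cdkn1a, Cdkn1b, Cdkn2c, Rb1). All 35 symbols had a row in the table. They were chosen by function, with earlier results of these data known.

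The series asked whether binge-like ethanol soon after birth leaves a trace in the RNA of microglia, the brain's own immune cells, at adolescence. All 9 mice were male, of strain C57BL/6, from 3 litters. They were injected under the skin of the back on postnatal days 4 to 9, 2 injections a day. The 4 ethanol mice received 20% v/v ethanol at 1.8 g/kg per injection, 2 h apart, or 3.6 g/kg a day, and the 5 saline mice an equal volume of saline. Saline 1 to 5 were 36, 30, 35, 29 and 30 days old at collection and ethanol 1 to 4 were 35, 35, 30 and 30 days old. Saline 1, saline 3, ethanol 1 and ethanol 2 are called older below, and the other 5 mice younger. Live CD11b-positive, CD45-low cells were sorted from the visual cortex of both hemispheres, between 8923 and 19071 cells per mouse. Each library came from 1 mouse, so variation among mice and variation among sorts and library preparations cannot be told apart, and the sources used here do not tie mice to litters.

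To divide, a cell first commits to S phase in G1, when cyclin D with Cdk4 or Cdk6 phosphorylates the retinoblastoma protein and frees E2F factors, which switch on genes of DNA replication. Genes of G2 and mitosis are switched on later, and in resting cells a complex called DREAM, which binds DNA at CHR elements, keeps them down. Microglia multiply in the brain around birth and renew slowly in the adult, and Mki67 and Top2a are the usual markers of their division. The Cip/Kip inhibitors Cdkn1a (p21) and Cdkn1b (p27), the INK4 inhibitor Cdkn2c (p18) and the retinoblastoma protein Rb1 hold cells out of the cycle.

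Promoters of the members were searched for letters of the E2F, CHR and CCAAT motifs. RefSeq promoter windows (build GRCm38.p6, 250 bases before to 50 after the start site) were found for 28 of the 35 members. Windows are shown for Mcm6, a helicase gene at a moderate level in every library, and for Cdk1, Ccnb2 and Mki67, mitotic genes whose levels ranged from moderate to nearly undetected. Each is written 5′ to 3′ on the strand of the gene, with capitals at letters of the E2F, CHR and CCAAT motifs on either strand. The windows lie at chr1:128359656-128359955 for Mcm6, chr10:69352863-69353162 for Cdk1, chr9:70421505-70421804 for Ccnb2 and chr7:135716330-135716629 for Mki67, all on the minus strand.
Mcm6: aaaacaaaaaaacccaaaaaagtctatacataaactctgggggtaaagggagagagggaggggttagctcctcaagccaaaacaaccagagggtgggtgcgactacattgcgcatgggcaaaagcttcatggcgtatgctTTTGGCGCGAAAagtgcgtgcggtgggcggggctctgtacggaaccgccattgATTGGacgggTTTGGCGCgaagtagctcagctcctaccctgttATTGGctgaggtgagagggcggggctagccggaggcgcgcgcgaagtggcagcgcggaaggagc
Cdk1: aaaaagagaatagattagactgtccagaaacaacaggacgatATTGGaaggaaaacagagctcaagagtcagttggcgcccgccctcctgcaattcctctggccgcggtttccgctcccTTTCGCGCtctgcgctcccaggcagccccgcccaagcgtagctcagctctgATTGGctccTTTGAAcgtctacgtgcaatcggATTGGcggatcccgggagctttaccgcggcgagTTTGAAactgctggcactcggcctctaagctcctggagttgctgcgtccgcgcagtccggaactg
Ccnb2: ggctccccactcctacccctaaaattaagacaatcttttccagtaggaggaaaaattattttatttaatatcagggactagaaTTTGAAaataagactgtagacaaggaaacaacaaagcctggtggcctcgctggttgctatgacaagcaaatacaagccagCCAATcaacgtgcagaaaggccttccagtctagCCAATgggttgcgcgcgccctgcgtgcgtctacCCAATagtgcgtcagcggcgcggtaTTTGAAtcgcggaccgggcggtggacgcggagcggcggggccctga
Mki67: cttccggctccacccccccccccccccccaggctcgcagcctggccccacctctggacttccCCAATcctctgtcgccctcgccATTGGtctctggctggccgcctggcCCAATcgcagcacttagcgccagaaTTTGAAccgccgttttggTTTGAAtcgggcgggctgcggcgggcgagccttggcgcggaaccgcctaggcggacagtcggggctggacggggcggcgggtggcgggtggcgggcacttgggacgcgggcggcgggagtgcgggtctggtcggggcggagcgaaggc

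E2F letters (TTTCGCGC, TTTGGCGC, TTTCCCGC or TTTGCCGC, either strand) stood in the windows of 5 of the 28 matched members and in 2.26% of all 32851 promoter windows. The 5 were Mcm3, Mcm5, Mcm6, Mcm7 and Cdk1, so 4 of the 5 helicase genes with a window held them and 1 of the 11 G2 and mitosis genes. CHR letters (TTTGAA or TTCGAA) stood in 11 of the 28 and in 19.2% of all windows. 9 of those 11 were G2 and mitosis genes, and the rest were Mcm2 and Mcm7. CCAAT stood in 21 of the 28 and in 37.4% of all windows, among them 10 of 11 G2 and mitosis genes, 5 of 5 helicase genes, 3 of 4 genes of DNA synthesis and 1 of 5 genes of G1. None of the 4 genes of DNA synthesis held E2F or CHR letters. In Mcm6 E2F letters began 110, 106 and 47 bases before the start site, the middle one overlapping the first on the opposite strand. In Cdk1 the E2F letters began 131 bases before the start site and the CHR letters 71 and 15 bases before it. For E2f1, Cdk6, Cdkn2c and Mcm7, every window lay inside the gene as annotated, so bases before its outermost start site were not searched. A match to letters is a description of the sequence and not a binding site, and none of these data measured binding.

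Library totals ran from 12816198 to 28859244 counts, so that 1 read was worth 0.0345 to 0.0794 CPM (the read count scaled to a common library size, here by trimmed mean of M values). About the 1-sided 95% Poisson limit for a count of 0, 3 reads were worth 0.103 to 0.238 CPM. The Poisson intervals below are 2-sided. These limits, and the intervals below, cover counting error only. Ethanol 2 stood apart: 663 of its 8480 well expressed genes (mean of 10 CPM or more) lay more than 2-fold below the median of the other libraries, against 0 to 40 in the rest. None of the 13 members that well expressed lay more than 2-fold below in any library, and only Ccnd1 in saline 2 lay as far above. Summed CPM of 8 microglial markers was 54732 to 64925. Markers of other cells were far lower, at 1.63 to 98.3 CPM for astrocytes, 86.8 to 175 for oligodendrocytes, 1.01 to 5.88 for oligodendrocyte precursors, 2.02 to 26.9 for neurons, 48.5 to 70.0 for endothelial cells (almost all from Pecam1) and 39.0 to 91.1 for border macrophages (almost all from Mrc1). They were 44.7 to 68.9 for lymphocytes (almost all from Cd79b, with Cd3e and Nkg7 at 0), 4.69 to 16.0 for monocytes and neutrophils (S100a8 and S100a9 at 0), 0.297 to 1.60 for pericytes (Rgs5 at 0) and at most 0.835 for erythroid cells.

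Adolescent microglia held RNA for the helicase, the D cyclin kinases and Rb1 in every library, and almost none for most genes that mark division. 12 of the 35 members averaged under 1 CPM, and 10 of these 12 were genes of G2 and mitosis. 26 members had at least 1 read in all 9 libraries. Because long genes gather more reads, levels of the members are compared with each other as mean CPM per kilobase (kb) of merged exons, for which the median over 20941 protein-coding genes was 0.266 and the median of the members 1.05. On this scale 14 members lay under the protein-coding median. Dividing by the longest transcript instead raised 11 members by over 1.5-fold, the most for Ccnd3 (2.27-fold), Rrm1 (2.01-fold) and Mcm2 (1.99-fold). The median level per kb was 5.46 for the helicase, 2.50 for DNA synthesis, 0.110 for G2 and mitosis, 5.42 for G1 and entry into S, and 2.22 for the inhibitors. By the longest transcript these medians were 5.80, 4.64, 0.145, 6.58 and 3.06. In whole tissue or sorted cells alike, fewer cells that express a gene and less of its RNA per cell cannot be told apart, so these levels do not count dividing cells, and no sample of dividing cells was analysed here for comparison.

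**Figure D1:**
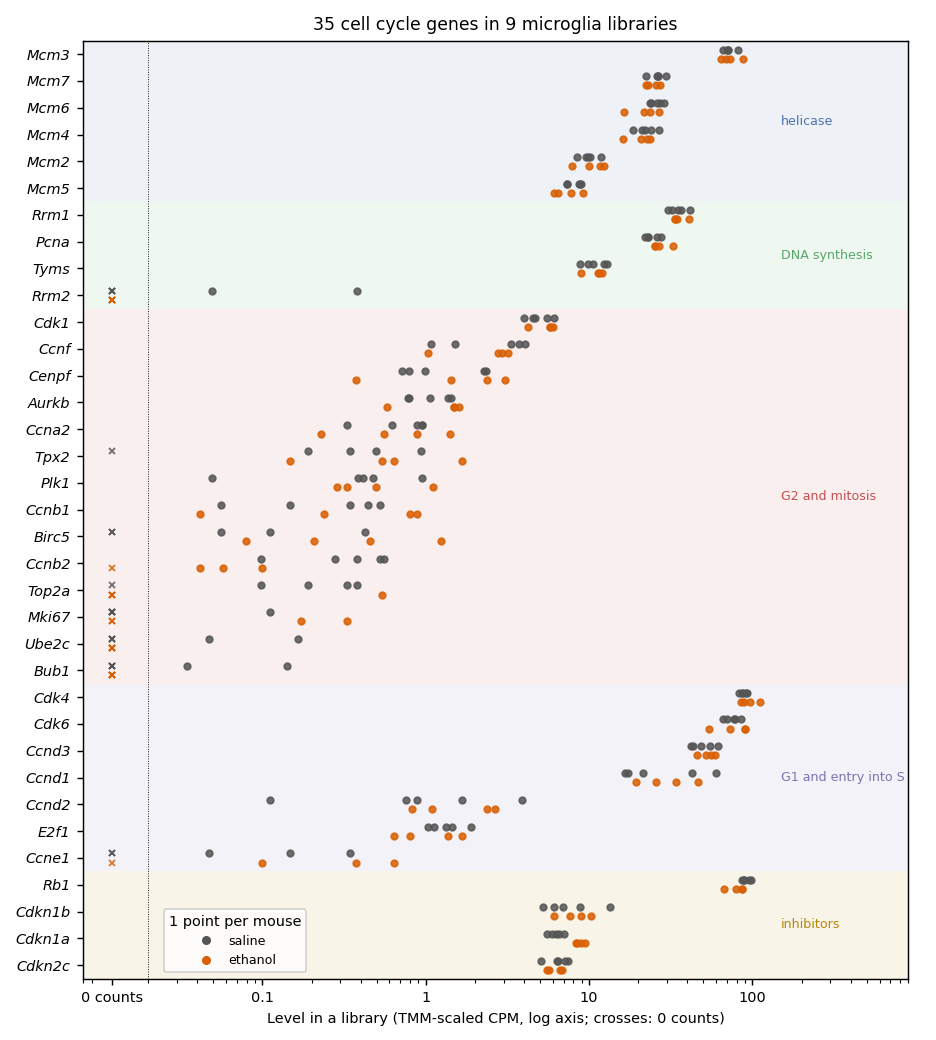
Level of each of the 35 genes in each library, in CPM on a log axis, grouped by role, with grey points for the 5 saline mice, orange points for the 4 ethanol mice and crosses at the left edge for libraries with 0 counts. The 6 helicase genes lie between 6.09 and 87.0 CPM in every library, whereas Mki67, Top2a, Bub1 and Ube2c have 0 counts in at least 1 library of each group.

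**Figure D2:**
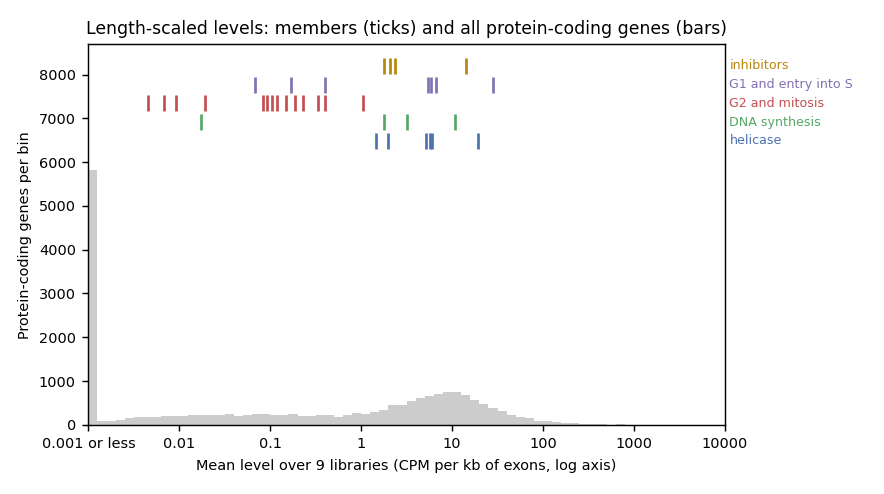
Mean level over 9 libraries per kb of merged exons, on a log axis, as ticks for the 35 genes by role above bars counting all 20941 protein-coding genes (the y axis applies to the bars only). Ticks for G2 and mitosis run from 0.00451 to 1.05 CPM per kb and those for the helicase from 1.46 to 19.3.

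The helicase was present at a steady level. Mcm2 to Mcm7 form the ring that is loaded on origins in G1 and unwinds DNA in S phase. Mcm3 was the highest per kb, at 19.3 ± 1.93 CPM per kb (SD, n = 9), and stood at the 89.5th percentile of protein-coding genes. Its level was 81.3, 66.0, 70.7, 70.5 and 69.9 CPM in saline 1 to 5 and 68.7, 87.0, 72.9 and 64.6 CPM in ethanol 1 to 4, so the groups overlapped throughout. Mcm4, Mcm7 and Mcm6 followed at 6.05, 5.74 and 5.18 CPM per kb, and their SDs of 0.872, 0.546 and 0.782 did not separate them. Mcm4, Mcm7 and Mcm6 stood at percentiles 72.85, 72.02 and 70.79 of protein-coding genes. Mcm5 and Mcm2 were the lowest, at 1.96 and 1.46 CPM per kb, or percentiles 60.25 and 58.22. The highest library exceeded the lowest by 1.32-fold (Mcm7) to 1.75-fold (Mcm6).

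Among the genes of DNA synthesis, the DNA polymerase clamp Pcna, at 10.7 ± 1.34 CPM per kb, and thymidylate synthase Tyms, at 1.79 ± 0.243 CPM per kb, were read in every library. The subunits of ribonucleotide reductase, which makes deoxynucleotides, lay far apart. The large subunit Rrm1 stood at 3.21 ± 0.346 CPM per kb. The small subunit Rrm2, whose supply is tied to S phase, stood at 0.0172 CPM per kb, with 1 read in saline 3, 8 reads in saline 5 and 0 in the other 7 libraries.

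The G2 and mitosis genes were the lowest group. Mki67, the standard marker of cycling cells, had 13 reads in all 9 libraries together: 2 in saline 1, 8 in ethanol 2 and 3 in ethanol 3. That is 0.0719 CPM (95% Poisson interval 0.0383 to 0.123). Top2a, the topoisomerase that untangles chromosomes for mitosis, had 0, 11, 2, 6 and 4 reads in saline 1 to 5 and 0, 13, 0 and 0 in ethanol 1 to 4. The spindle checkpoint kinase Bub1 and the ubiquitin-conjugating enzyme Ube2c, which works with the anaphase-promoting complex, had 4 reads each. In saline 1 to 5 Bub1 had 0, 1, 0, 0 and 3 reads and Ube2c had 0, 0, 0, 3 and 1. Both were at 0 in all 4 ethanol libraries, where 3 reads would be 0.124 to 0.238 CPM. The survivin gene Birc5 had 1, 0, 0, 2 and 9 reads in the saline libraries and 1, 5, 8 and 25 in the ethanol libraries. The polo kinase gene Plk1 was read in all 9 libraries, with 1 read in saline 3 and 5 to 17 elsewhere.

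Cdk1 stood above the other members of this role. This kinase drives cells into mitosis, and it stood at 1.05 ± 0.167 CPM per kb, the highest of the 14. Its level was 3.98, 4.52, 4.66, 6.09 and 5.55 CPM in saline 1 to 5 and 4.21, 6.01, 5.79 and 5.73 CPM in ethanol 1 to 4. Its cyclin partners lay lower per kb, at 0.186 for Ccna2, 0.147 for Ccnb2 and 0.0918 for Ccnb1. Ccnb2 and Ccnb1 were read too seldom to test. Cdk1 and Ccna2 were tested, as were the chromosomal passenger kinase Aurkb (0.399) and the cyclin F gene Ccnf (0.336). The spindle assembly factor Tpx2 (0.118) and the kinetochore protein gene Cenpf (0.103) completed the tested members of this role. The summed level of the 14 genes was 10.1 to 16.7 CPM per library, 12.9 ± 2.10 in saline (SD, n = 5) and 14.4 ± 2.71 in ethanol (SD, n = 4), and the groups overlapped.

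The G1 genes fell into a high and a low set. In the high set were the kinase genes Cdk4, at 28.0 ± 2.63 CPM per kb and the highest of all 35 members, and Cdk6, at 5.42 ± 0.834. The cyclin genes Ccnd1 (6.68 ± 3.22) and Ccnd3 (5.84 ± 0.779) also belonged to it. By the longest transcript Ccnd3 stood at 13.3 and Ccnd1 at 8.41. Exons of Cdk4 share 641 bases with Tspan31 on the opposite strand and those of Ccnd1 1100 bases with LTO1, so reads of these neighbours may be counted in either gene. Ccnd2, another D cyclin, stood at 0.168 CPM per kb, E2f1 at 0.398, and cyclin E gene Ccne1 at 0.0687 with 33 reads in all. Ccnd1 was also the most variable member of the high set. It measured 42.5, 59.7, 16.6, 17.4 and 21.4 CPM in saline 1 to 5 and 19.4, 46.3, 33.9 and 25.8 CPM in ethanol 1 to 4, a 3.60-fold range that separated neither treatments nor ages. All 4 inhibitors were read in every library, with Rb1 the highest per kb (14.3 ± 1.50), followed by Cdkn2c (2.37), Cdkn1a (2.08) and Cdkn1b (1.79). By the longest transcript Cdkn1a (3.55) stood above Cdkn2c (2.57) and Cdkn1b (1.79).

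No difference between ethanol and saline mice passed the test for any of the 25 members with enough reads (edgeR's quasi-likelihood test, Benjamini-Hochberg adjustment over 13067 genes, threshold 0.05). None of the 13067 genes passed it, so the share called over all genes was 0%, and the smallest adjusted p was 0.963. DESeq2 and limma-voom also called 0 genes. At an unadjusted p under 0.05, edgeR counted 386 genes (2.95%), DESeq2 435 and limma-voom 504, and the edgeR count included 1 of the 25 members, Cdkn1a. Against 49.8% of all genes above 0, the fold changes of 16 members lay above 0 and of 9 below. Their median on the log2 scale was 0.03, against -0.00068 over all genes. The median size of change, whatever its sign, was 0.117 for the members and 0.118 for all genes. The 95% interval stayed within 2-fold of no change for 18 of the 25 members, against 79.3% of all genes, and within 1.5-fold for 15, against 59.4%. The 7 wider ones belonged to Ccna2, Ccnf, Aurkb, Cenpf, Tpx2, Ccnd2 and E2f1, all of low level, whose intervals included changes of 2-fold.

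**Figure D3:**
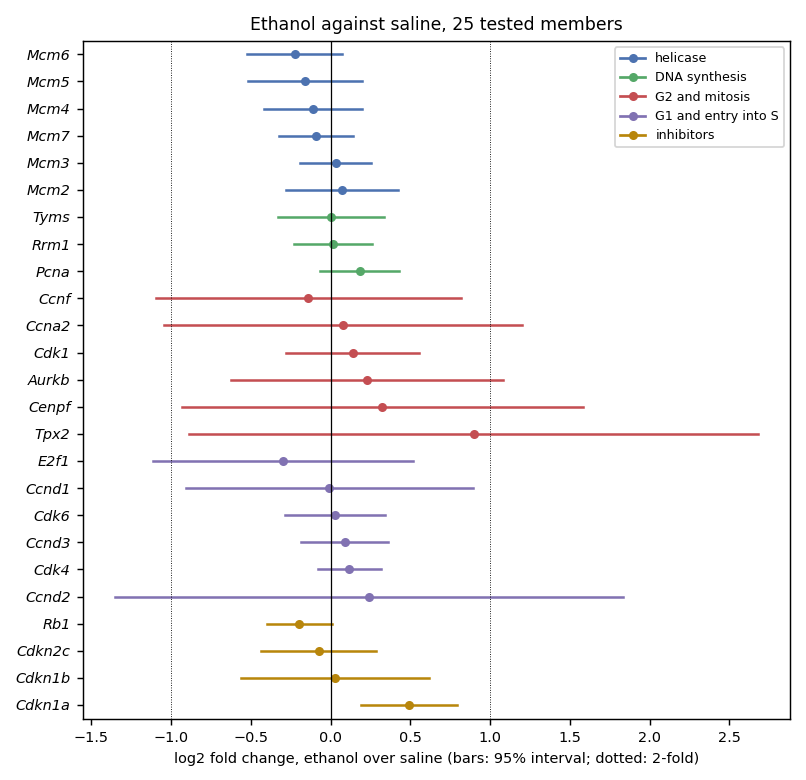
Log2 fold change of ethanol over saline for the 25 tested members, coloured by role, with 95% intervals as bars and dotted lines at 2-fold. Cdkn1a, at 0.49, is the one member whose interval does not reach 0, and the widest interval belongs to Tpx2.

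Cdkn1a, the p53-responsive inhibitor of cyclin-dependent kinases, had the smallest p of the members. Its level was 7.01, 5.90, 6.29, 5.53 and 6.54 CPM in saline 1 to 5 and 8.34, 9.45, 8.88 and 8.45 CPM in ethanol 1 to 4. Every ethanol library lay above every saline library. Higher levels without overlap held for 86 of the 13067 genes (0.658%), and lower levels without overlap for 82 (0.628%), among which was no member. The means were 6.25 ± 0.570 CPM in saline (SD, n = 5) and 8.78 ± 0.506 CPM in ethanol (SD, n = 4), a log2 fold change of 0.49 ± 0.14 (SE; 95% interval 0.19 to 0.79). By edgeR's quasi-likelihood test the unadjusted p was 0.00403, rank 14 of all genes, and the adjusted p 0.963. The log2 fold change was 0.42 in the older mice alone and 0.53 in the younger mice alone, and 0.45 without ethanol 2. The edgeR interaction of ethanol with age for Cdkn1a was -0.11 ± 0.29. An unnamed gene model on the opposite strand, AC167363.2, shares 273 bases of exon with Cdkn1a, and the sources used here do not say whether counting used strand.

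The groups overlapped for the other 3 inhibitors. Rb1 measured 95.9, 97.3, 88.7, 88.5 and 86.6 CPM in saline and 78.9, 67.0, 86.7 and 86.6 CPM in ethanol, where only ethanol 3 reached into the saline range, with a log2 fold change of -0.20 ± 0.09 (edgeR unadjusted p 0.0558, adjusted p 0.963). Without ethanol 2, the lowest library for Rb1, the log2 fold change was -0.12, and lacking both saline 1 and ethanol 2 it was -0.10. Its exons share 896 bases with Lpar6 and Rcbtb2. Cdkn1b had a log2 fold change of 0.03 ± 0.27 and Cdkn2c of -0.07 ± 0.16.

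Genes that build or run the replication machinery showed small differences in both directions. Of the 6 helicase genes 2 lay above 0 and 4 below, and their median on the log2 scale was -0.10. The one furthest from 0 was Mcm6, with 23.5, 27.1, 25.9, 28.6 and 24.0 CPM in saline and 26.8, 23.6, 21.8 and 16.3 CPM in ethanol, a log2 fold change of -0.23 ± 0.14. For Mcm6, ethanol 3 and ethanol 4 lay below every saline library, and ethanol 1 and ethanol 2 within the saline range. The log2 fold change was -0.10 without ethanol 4, -0.49 in the younger mice alone and 0.03 in the older mice alone. For DNA synthesis all 3 tested genes lay above 0, with log2 fold changes of 0.18 ± 0.11 for Pcna, 0.02 ± 0.11 for Rrm1 and 0.00194 ± 0.152 for Tyms. Pcna was highest in ethanol 2, at 32.7 CPM, and 22.1 to 27.6 CPM in the other 8 libraries, and its log2 fold change was 0.08 without ethanol 2.

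Of the 6 tested genes of G2 and mitosis 5 lay above 0 and 1 below. The log2 fold changes were 0.14 ± 0.19 for Cdk1, 0.23 ± 0.39 for Aurkb, 0.32 ± 0.57 for Cenpf, 0.90 ± 0.81 for Tpx2, 0.08 ± 0.51 for Ccna2 and -0.14 ± 0.44 for Ccnf. The largest of these, for Tpx2, rested on levels of 0, 0.345, 0.933, 0.498 and 0.190 CPM in saline and 0.635, 0.539, 1.66 and 0.148 CPM in ethanol, and was 0.13 without the library ethanol 3. In G1 the log2 fold changes ran from -0.30 ± 0.37 for E2f1 to 0.24 ± 0.72 for Ccnd2. That of E2f1 was -0.52 without ethanol 1 and -0.10 without ethanol 4. Between them lay Ccnd1 (-0.01 ± 0.41), Cdk6 (0.03 ± 0.14), Ccnd3 (0.09 ± 0.12) and Cdk4 (0.12 ± 0.09). Cdk4 was 92.2, 86.4, 87.4, 91.2 and 82.2 CPM in saline and 97.0, 111, 84.8 and 88.3 CPM in ethanol, with ethanol 2 the highest, and without ethanol 2 its log2 fold change was 0.03.

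The 10 members with too few reads for this test were read in a fit of all 23832 genes with any count. None passed the adjusted threshold, with a smallest adjusted p of 0.793 by edgeR, and 2 of 10 had an unadjusted p under 0.05, against 3.62% of all genes in that fit. These were Rrm2 and Ccnb2. Ccnb2, a B cyclin of mitosis, had 5, 11, 2, 10 and 11 reads in saline 1 to 5 and 0, 1, 1 and 2 in ethanol 1 to 4. Pooled over libraries this was 0.367 CPM in saline (39 reads; 95% Poisson interval 0.261 to 0.501) and 0.0538 CPM in ethanol (4 reads; 0.0146 to 0.138). Saline 3, at 0.0982 CPM, lay within the ethanol range, so the groups overlapped. The log2 fold change was -2.67 ± 0.94, with an unadjusted edgeR p of 0.00974. A pseudogene copy, Ccnb2-ps, had 21 to 78 reads per library, more than the gene itself in each, so reads that match both could have been placed on either. The other B cyclin, Ccnb1, had 33 reads in saline and 36 in ethanol. No member of the 10 had groups without overlap, against 0.491% of genes higher and 0.491% lower in ethanol.

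The mice also differed in age. Older mice were compared with younger mice with ethanol as a covariate: 0 of 13067 genes passed in edgeR (0%), DESeq2 or limma-voom, and 372 had an unadjusted edgeR p under 0.05 (2.85%), 451 in DESeq2 and 430 in limma-voom. Of the members 2 of 25 had an unadjusted p under 0.05, Ccnf and Cdk6. No tested member had levels without overlap between the ages, which held for 0.643% of genes higher and 0.597% lower in older mice. Age nearly coincided with the ending of the library names, whose meaning the sources used here do not state. Of the 4 older mice 3 shared an ending with only 1 younger mouse, saline 4, and the other 4 younger mice shared an ending with no older mouse. With that ending as a covariate, an alternative added after the data were seen, age was read from few mice and 0 genes passed in edgeR (172 at an unadjusted p under 0.05). The members' log2 fold changes ran from -1.16 to 0.66 with a median of 0.06, against -0.02 over all genes.

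Ccnf, which encodes the F-box protein cyclin F, measured 1.51, 1.08, 1.03 and 3.19 CPM in saline 1, saline 3, ethanol 1 and ethanol 2, the older mice. In the younger mice it was 4.07, 3.32 and 3.75 CPM in saline 2, 4 and 5 and 2.75 and 2.92 CPM in ethanol 3 and 4. Only ethanol 2 kept the ages from separating. The log2 fold change of older over younger was -0.98 ± 0.38 (edgeR unadjusted p 0.0253, adjusted p 0.973). Ethanol 2 was the one overlap, so leaving it out could only widen the difference. Over left-out libraries the log2 fold change ran from -1.49, without ethanol 2, to -0.75. With the library-name ending as a covariate it was -0.91 ± 0.75, and within the shared ending saline 4 was at 3.32 CPM against 1.08, 1.03 and 3.19 CPM in the 3 older mice. Cdk6 measured 77.0, 65.7, 72.8 and 54.2 CPM in the same 4 older mice and 78.4, 70.0, 84.6, 89.9 and 89.7 CPM in the younger ones. Its log2 fold change was -0.29 ± 0.12 (edgeR unadjusted p 0.0355, adjusted p 0.973), -0.18 without ethanol 2, the lowest library, and -0.17 ± 0.20 with the library-name ending as a covariate.

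Ccnb1, read too seldom for the main test, had 1, 3, 3 and 1 reads in the older mice and 10, 8, 11, 14 and 18 in the younger mice. In CPM this was 0.0561, 0.147, 0.238 and 0.0415 against 0.345, 0.443, 0.522, 0.802 and 0.890, with no overlap between the ages. Within the shared ending, saline 4 had 0.443 CPM and the 3 older mice 0.147, 0.238 and 0.0415 CPM. In the fit of 23832 genes its log2 fold change was -2.34, with an unadjusted edgeR p of 0.00420 and an adjusted p of 0.306. Levels lower in older mice without overlap held for 0.6% of genes in that fit and higher levels for 0.441%. Birc5 had 1, 0, 1 and 5 reads in the older mice and 0, 2, 9, 8 and 25 in the younger ones (unadjusted edgeR p 0.0128). These were the 2 of 10 seldom-read members with an unadjusted p under 0.05 for age, against 5.61% of all genes, and 0.407% of all genes passed the adjusted threshold there. Cdk1 was 3.98, 4.66, 4.21 and 6.01 CPM in the older and 4.52 to 6.09 CPM in the younger mice, a log2 fold change of -0.24 ± 0.19. Of the 13 reads of Mki67, 10 came from the older mice saline 1 and ethanol 2.

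All 6 helicase genes had log2 fold changes above 0 for age, against 45.18% of all genes. They ran from 0.02 ± 0.17 for Mcm5 to 0.17 ± 0.14 for Mcm4, with a median of 0.14. No helicase gene had an unadjusted edgeR p under 0.05. Mcm5 and Mcm7 changed sign when single libraries were left out, and Mcm4 and Mcm5 were at -0.13 and -0.14 with the library-name ending as a covariate. Cdkn1a had 0.10 ± 0.14 and Cdkn1b 0.41 ± 0.25, the latter 0.09 without saline 3, its highest library at 13.4 CPM, and 0.80 with the library-name ending as a covariate. Ccnd2 had -1.16 ± 0.74, from 0.112, 0.884, 2.38 and 0.83 CPM in the older mice and 0.759, 1.66, 3.89, 1.09 and 2.67 CPM in the younger ones, -0.66 without saline 1 and -0.41 with the library-name ending as a covariate. The summed astrocyte markers were likewise lowest in saline 1 (1.63 CPM) and were highest in ethanol 4 and saline 5 (98.3 and 74.5 CPM), where Ccnd2 was highest. Their part in the Ccnd2 values was not tested.

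**Figure D4:**
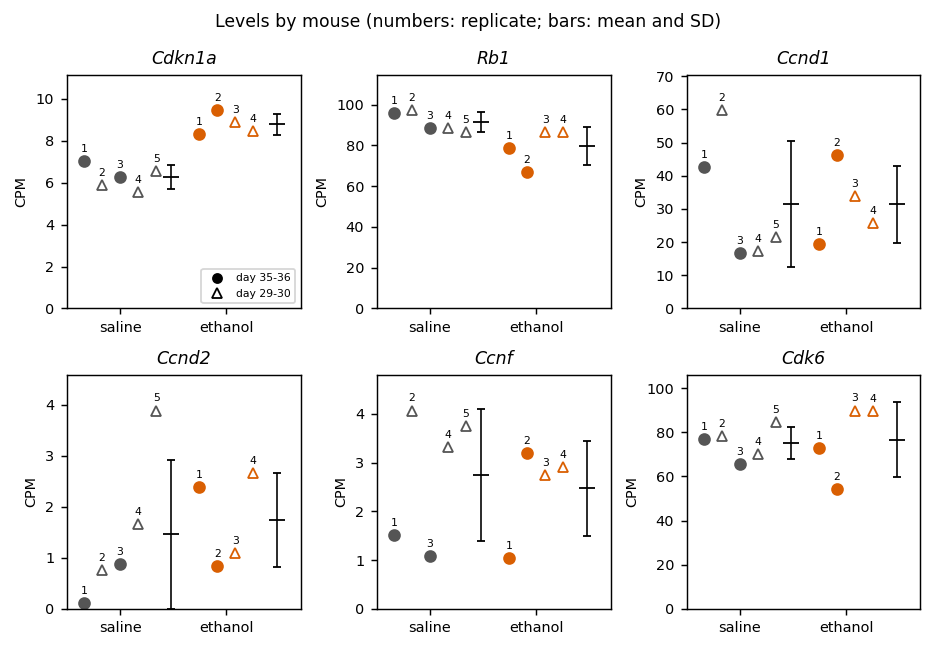
Level in CPM of 6 members in each mouse, saline in grey and ethanol in orange, filled circles for mice 35 or 36 days old and open triangles for mice 29 or 30 days old, with the mean and SD of each treatment as bars. Cdkn1a separates the treatments, at 5.53 to 7.01 against 8.34 to 9.45 CPM, while for Ccnf the older mice other than ethanol 2 lie at 1.03 to 1.51 CPM.

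Whether the ethanol difference itself changed with age was tested as an interaction. None of the 13067 genes passed in edgeR (0%), and 1 passed in DESeq2, C130089K02Rik, named here after its value was seen. Of the 25 members 1 had an unadjusted p under 0.05 in edgeR, against 423 of all genes (3.24%), and DESeq2 counted 442 genes. The member was E2f1, which encodes the transcription factor that drives entry into S phase. In the older mice it measured 1.12 and 1.03 CPM in saline 1 and 3 and 1.67 and 1.37 CPM in ethanol 1 and 2. In the younger mice it measured 1.45, 1.33 and 1.90 CPM in saline 2, 4 and 5 and 0.802 and 0.642 CPM in ethanol 3 and 4. Ethanol mice were thus above saline mice at one age and below them at the other, an interaction of 1.59 ± 0.65 on the log2 scale (edgeR unadjusted p 0.0350, adjusted p 0.972). With the library-name ending as a covariate it was 1.75 ± 0.81 (edgeR unadjusted p 0.0674).

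Other genes of the cell cycle were read from 6 further lists, and none of their genes passed the test, so that 85 genes were tested with the members and 0 called. Of 5 tested further inhibitors and pocket proteins 3 lay above 0 and 2 below for ethanol, and the one with the most CPM, not corrected for length, was Rbl2, a relative of Rb1, which averaged 87.0 ± 12.3 CPM in the saline and 81.0 ± 9.85 CPM in the ethanol mice. Of 12 E2F and DREAM genes 6 lay above and 6 below. An unadjusted edgeR p under 0.05 was held by 2 of the 12, against 2.95% of all genes, and by no gene of the other lists. These were Lin54 and E2f6, the latter named after its value was seen. Among the 12 genes the one with the most CPM was E2f4, a repressive E2F, with a log2 fold change of -0.14 ± 0.12. The smallest p belonged to Lin54, the DREAM subunit that binds CHR elements, which averaged 24.2 ± 2.69 CPM in the saline and 31.8 ± 3.08 CPM in the ethanol mice, with a log2 fold change of 0.39 ± 0.11 (edgeR unadjusted p 0.00389, adjusted p 0.963). Of 15 genes of origin licensing and firing 10 lay above and 5 below, with Gins1 at 0.42 ± 0.22 and Orc3, the one with the most CPM, at 0.01 ± 0.08. Of 6 other G1 and S regulators 1 lay above (Cdc25a, 0.20 ± 0.11) and 5 below, Cdk2 among them at -0.03 ± 0.10.

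Of 23 other mitotic genes 15 averaged under 1 CPM and 14 could be tested, of which 5 lay above 0 and 9 below. Incenp, a partner of Aurkb, had a log2 fold change of 0.28 ± 0.15, and the securin gene Pttg1, the one with the most CPM in that list, -0.03 ± 0.10. Without correction for length, Pttg1 averaged 33.5 CPM and Incenp 16.9 CPM over all libraries, against 5.17 CPM for Cdk1. All 8 antiproliferative and p53-responsive genes were tested, and 7 lay above 0 and 1 below, against 49.8% of all genes above 0. Gadd45a, Mdm2 and Ccng1, named here after their values were seen, had log2 fold changes of 0.76, 0.04 and -0.00227. Gadd45a, the furthest from 0 in this list, measured 0.897, 0.724, 0.835, 0.775 and 0.948 CPM in saline 1 to 5. It was at 2.22, 0.580, 1.32 and 1.63 CPM in ethanol 1 to 4 (edgeR unadjusted p 0.0787). Btg2 averaged 298 ± 46.7 CPM in the saline and 375 ± 86.2 CPM in the ethanol mice, with a log2 fold change of 0.33 ± 0.16. Ccng2 averaged 372 ± 27.1 and 405 ± 16.3 CPM, with a log2 fold change of 0.12 ± 0.07. No gene of this list had an unadjusted edgeR p under 0.05 for ethanol.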

How the data were processed

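RNA was sequenced from microglia of 9 mice, 1 library each. The authors deposited a table of raw counts by symbol, not normalized. Trimmomatic 0.32, STAR 2.4.2a, HTSeq 0.6.1 and the build GRCm38.p4 appear in the submitters' processing notes. The sources used here give neither their settings nor the annotation or use of strand, so reads of overlapping genes or close copies may be misplaced. Low genes were dropped with filterByExpr of edgeR (minimum count 10, total 15), leaving 13067 genes and 25 of the 35 members. Libraries were scaled by TMM, and edgeR's quasi-likelihood test (edgeR 4.0.16, R 4.3.3, robust) was adjusted by Benjamini-Hochberg over all genes tested, threshold 0.05. SEs were derived from fold changes and F statistics. Per-kb levels use merged exons of GENCODE M21. Alternatives were DESeq2 1.42.0, limma-voom (limma 3.58.1), RLE scaling, other filters, covariates, left-out libraries and subsets, and a replicate block. Library-name endings as a covariate for age and the interaction were added after the data were seen. Replicate numbers did not pair the libraries (correlations of deviations -0.169 to 0.00125), and no 2 libraries of the same treatment agreed within sampling noise. The procedure was tested on simulated data. Members and lists were chosen with earlier results of these data known. All 35 members are named, and from each further list the gene with the highest CPM and the one with the smallest p for ethanol. The p-values set each difference against the spread between these libraries, which holds that of mice, sorts and library preparations together. Litter could not be taken into account.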

Additional observations from a re-analysis of the deposited data

Results flagged for a closer look

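Levels of each member were searched, within the saline and within the ethanol libraries, for 1 library far from the rest by Dixon's test, and 9 of 67 groups were picked out. Chance picks out about 1 in 20 groups of normally distributed values. That rate does not hold for groups with counts at or near 0, so it is no measure for these 9. Among the members with enough reads to test, Rrm1 was high in ethanol 2 (41.17 CPM, the next 34.38), Cdk1 was low in ethanol 1 (4.208 CPM, the next 5.733) and Aurkb was low in ethanol 2 (0.5804 CPM, the next 1.483). The other 6 rest on 13 reads or fewer: Top2a in ethanol 2 (0.539 CPM, 13 reads, 0 in the other ethanol libraries), Rrm2, Birc5 and Bub1 in saline 5 (0.3793, 0.4267 and 0.1422 CPM), Mki67 in saline 1 (0.1121 CPM, 2 reads) and Ube2c in saline 4 (0.166 CPM, 3 reads).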

How the results depend on the processing

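For ethanol against saline, all 20 alternatives gave 0 genes past the adjusted threshold, a replicate block among them. For age, 97 genes passed with no count filter and 3 without saline 1 and ethanol 2 (Adrb1, Nfkbia and Tagap, named after their values were seen). For the interaction, 1 passed in DESeq2, 53 with no count filter and, over left-out libraries, 0 to 848, the latter without ethanol 1, which leaves ethanol 2 as the only older ethanol mouse, assumed to vary like the rest. No member was among the genes that passed in any alternative. Cdkn1a kept its direction for ethanol in all alternatives (0.42 to 0.54), and its interaction ran from -0.2066 to 0.008441 over left-out libraries. Other changes turned sign, and no cause was tested. These were, on the log2 scale for ethanol: Tyms with DESeq2 (-0.001871) and RLE (-7.763e-05). With age as covariate: Ccna2 -0.0205, Ccnf 0.1039, Cdkn1b -0.02353. With library-name endings as covariate: Tyms -0.03574, Ccnd1 0.2446, Ccnd2 -0.00849, Cdkn1b -0.09879, and, added after the data were seen, Mcm4 -0.1335 and Mcm5 -0.1384 for age and Cdkn1a 0.02432 for the interaction. With limma-voom: Mcm2 -0.01094, Mcm3 -0.01484, Rrm1 -0.01165, Ccna2 -0.442, Ccnd1 0.09823, Cdkn1b -0.09005. In older mice alone: Mcm6 0.02753, Tyms -0.1356, Ccnf 0.7256, Aurkb -0.2062, Cenpf -0.8459, Ccnd1 0.1579, Cdk6 -0.1691, E2f1 0.4882. In younger mice alone: Mcm2 -0.1791, Mcm3 -0.004987, Mcm7 0.00427, Rrm1 -0.06141, Ccna2 -0.1699, Ccnd2 -0.1452, Cdk4 -0.002708, Cdkn1b -0.08594. Without saline 1 and ethanol 2: Mcm2 -0.03897, Mcm3 -0.01289, Ccna2 -0.3066, Cdkn1b -0.2266. Under the replicate block, Ccnf was 0.05313 and Ccnd1 0.02545 for ethanol, and Mcm5 -0.3112 and Cdk1 0.05198 for age. Over left-out libraries the ethanol change ran from -0.4066 to 0.373 for Ccna2, -0.2639 to 0.3637 for Ccnd1, -0.0572 to 1.016 for Ccnd2, -0.343 to 0.1096 for Ccnf, -0.05714 to 0.1614 for Cdk6, -0.1074 to 0.28 for Cdkn1b, -0.05142 to 0.6718 for Cenpf, -0.02567 to 0.1868 for Mcm2, -0.06428 to 0.0894 for Mcm3, -0.06566 to 0.08137 for Rrm1 and -0.06301 to 0.08948 for Tyms. Without a change of sign it ran from -0.1874 to -0.005784 for Mcm4, -0.2723 to -0.08079 for Mcm5, 0.07127 to 0.2463 for Cdk1, 0.1199 to 0.4799 for Aurkb, 0.03385 to 0.1734 for Ccnd3 and -0.1489 to -0.02038 for Cdkn2c. The age change ran from -0.08445 to 0.1138 for Mcm5 and -0.003045 to 0.1311 for Mcm7. The numbers do not pair the mice, so the block only shows the result of another fit. Depth limits the 10 seldom-read members, whose levels rest on 4 to 84 reads over 9 libraries.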
